A study of Mus musculus with 2 samples.

Results

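Interferon signaling was examined in DSS-treated mouse intestinal organoids (mIOs) through 45 genes in 4 classes, namely receptors, STAT and IRF transcription factors, nucleic acid sensors and effectors. The genes were taken as a list of names and looked up by symbol in the deposited count table. Of the 45 members, 41 had a row among the 19294 genes of the table, and 40 of these reached 10 counts in one library or both. Gbp2, Gbp3, Zbp1 and Ido1 had no row in the table used here and were not analysed. Sp100, with 3 counts in the control library and 8 in the DSS library, was below the minimum.

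The mIOs came from jejunal crypts and were kept in Matrigel with EGF, Noggin and R-spondin. The donor mice were Lgr5-EGFP-IRES-creERT2, so that the Lgr5 locus drives EGFP and an inducible Cre. Both libraries carry this genotype and both are labelled Day 4. One library came from untreated mIOs (control) and one from mIOs exposed for 4 days to dextran sulfate sodium (DSS), which is toxic to the gut epithelium, at a concentration that is not given in the sources used here. How many mice or cultures went into each library is not stated. With 1 library per condition, differences have no replicate check and are given without a test. Every interval is an exact Clopper-Pearson 95% interval that covers counting error only.

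Interferons are cytokines of antiviral and inflammatory defense. Type I interferons bind a receptor of IFNAR1 and IFNAR2, type III interferons bind a receptor of IFNLR1 and IL10RB that is typical of epithelia, and IFN-γ binds a receptor of IFNGR1 and IFNGR2. Janus kinases at these receptors phosphorylate STAT proteins. STAT2 and IRF9 belong to the complex ISGF3, which binds the interferon-stimulated response element (ISRE) in promoters, and STAT dimers formed after IFN-γ bind the gamma-activated site (GAS). The genes switched on in this way encode antiviral effectors, and also sensors and IRF factors that feed back on the pathway.

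The promoters of several members hold the ISRE core, searched here as GAAANNGAAA on both strands in RefSeq windows of GRCm38.p6 that run from 250 bases before to 50 bases after the annotated start of a gene. The stretches below are the 160 bases before the start of 5 members with the core that were higher or unresolved in the DSS library and of Bst2, which was lower. They are shown in the direction of transcription with the ISRE cores in capitals, overlapping ones joined. Not all of the 12 measured members with the core are printed. Trim21, which has 2 matches to the core and was also lower at -0.40, is among those left out.
Isg15, chr4:156200819-156200978, minus strand: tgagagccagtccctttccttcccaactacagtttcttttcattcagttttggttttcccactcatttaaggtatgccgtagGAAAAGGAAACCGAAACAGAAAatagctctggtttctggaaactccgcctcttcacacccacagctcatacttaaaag
Ifit1, chr19:34640729-34640888, plus strand: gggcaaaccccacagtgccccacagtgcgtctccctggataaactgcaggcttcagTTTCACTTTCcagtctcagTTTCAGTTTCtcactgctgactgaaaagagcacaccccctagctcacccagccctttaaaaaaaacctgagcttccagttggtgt
Ifit3, chr19:34583369-34583528, plus strand: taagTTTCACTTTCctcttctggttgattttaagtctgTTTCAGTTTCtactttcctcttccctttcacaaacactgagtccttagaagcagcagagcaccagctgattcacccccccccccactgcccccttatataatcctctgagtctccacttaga
Rsad2, chr12:26456453-26456612, minus strand: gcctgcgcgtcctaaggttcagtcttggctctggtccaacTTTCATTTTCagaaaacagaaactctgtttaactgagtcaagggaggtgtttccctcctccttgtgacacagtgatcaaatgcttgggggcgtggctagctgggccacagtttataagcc
Gbp7, chr3:142530176-142530335, plus strand: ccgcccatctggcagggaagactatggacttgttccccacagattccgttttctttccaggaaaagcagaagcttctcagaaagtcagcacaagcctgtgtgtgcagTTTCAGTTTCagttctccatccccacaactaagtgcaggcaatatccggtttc
Bst2, chr8:71537473-71537632, minus strand: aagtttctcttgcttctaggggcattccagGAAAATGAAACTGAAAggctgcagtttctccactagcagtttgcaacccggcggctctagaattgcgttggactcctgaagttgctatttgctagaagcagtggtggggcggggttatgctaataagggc

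Isg15 holds 3 overlapping cores, Bst2 holds 2 overlapping cores, Ifit1 and Ifit3 hold 2 separate cores each, and Rsad2 and Gbp7 hold 1 each. The core nearest to a start begins 53 bases before it, in Gbp7, and the farthest begins 156 bases before it, in Ifit3.

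The members leaned toward higher values in DSS-treated mIOs, with a few effectors far in the other direction. Of the 40 members that passed the count minimum, 33 had a log2 ratio of TMM-scaled counts (DSS over control) above 0 and 7 below 0. When scaled by total counts alone, these were 28 and 12, where the median over all genes that passed the minimum was -0.31. With TMM scaling the median of the members was 0.68, beside -0.06 over all 17235 genes that passed the minimum. Of those 17235 genes, 8272 were above 0 and 8963 below 0. At a log2 ratio of 1 or more were 15 of the 40 members, where 19.3% of all genes were. At -1 or less were 3 members, where 20.2% of all genes were. At 2 or more were 7 members, beside 7.87% of all genes, and at -2 or less were 2 members, beside 6.54%. The number of members past these lines describes the 2 libraries and is not a test. In bulk RNA, fewer cells of a type and less RNA per cell cannot be told apart.

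**Figure D1:**
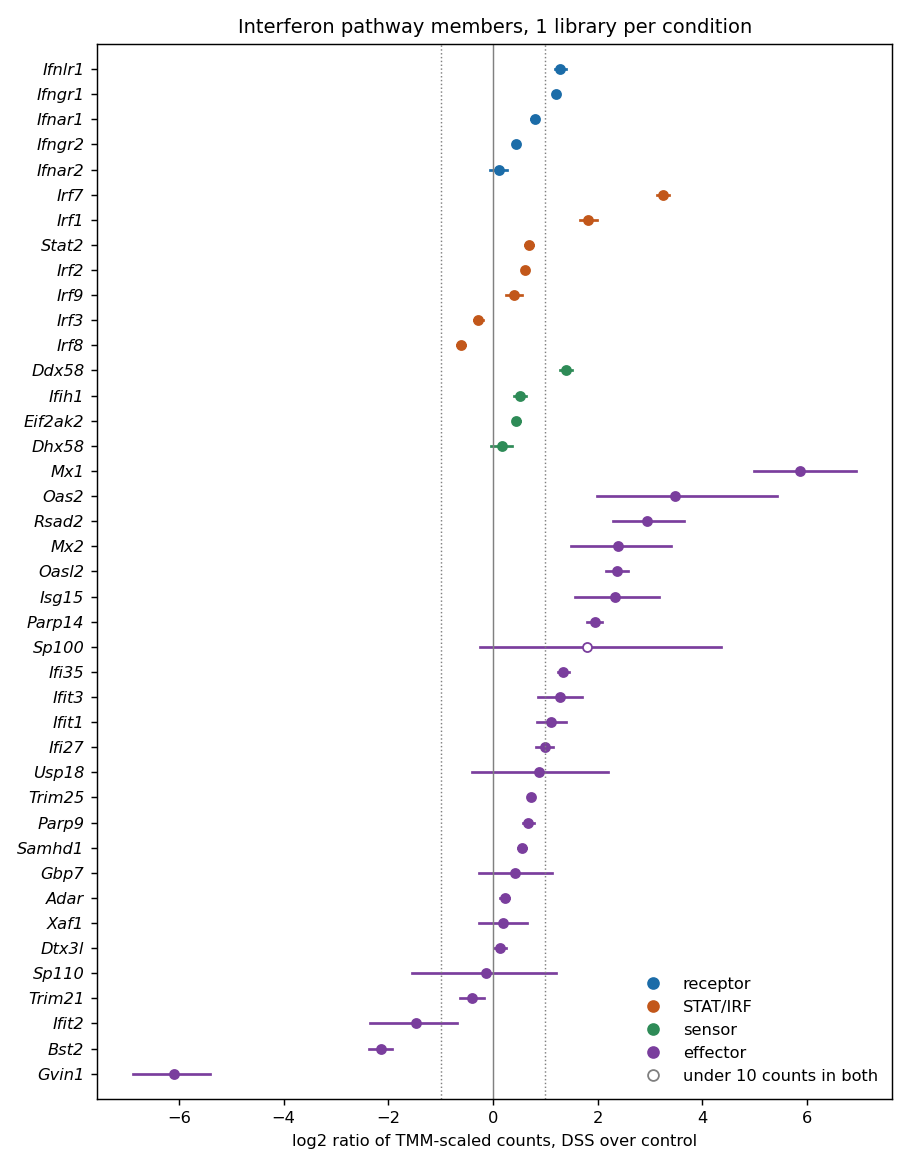
Log2 ratio of TMM-scaled counts, DSS over control, for the 41 members with a row, grouped by class. Points are the ratios, bars are exact 95% counting intervals, dotted lines mark 1 and -1, and the open point is Sp100. Mx1 lies farthest to the right at 5.87 and Gvin1 farthest to the left at -6.09, while the receptors, the sensors and most STAT and IRF genes lie within 2 of 0.

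Total counts were 65493032 for the control and 59746968 for DSS. Epithelial identity was plain in both libraries, as Epcam had 67379 and 52502 counts and all 6 epithelial markers were present. Of 15 immune cell markers, 9 had no row, among them Ptprc, Cd3e and Adgre1, and the 6 with a row summed to 12.5 CPM (counts per 1000000 of the scaled library) without DSS and to 23.6 CPM with it, nearly all of it Itgam and Cd68. The cell type label names intestinal stem cells, and the stem cell marker Lgr5 had 18849 control counts and 1048 DSS counts. Of the mesenchymal markers 2 of 6 had a row, with summed levels of 0.447 and 0.567 CPM, and of the endothelial markers only Pecam1, with 12 and 55 counts. The 5 enterocyte markers Alpi, Apoa1, Fabp1, Krt20 and Slc5a1 were all higher in the DSS library, with log2 ratios from 1.78 to 5.27 and a summed level that went from 932 to 10983 CPM. Whether these marker values reflect a shift in cell makeup, and the part of such a shift in the values of the interferon genes, was not tested.

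All 5 receptor chains had log2 ratios above 0, from 0.11 to 1.28 with a median of 0.79. Of all 17235 genes that passed the minimum, 8272 were above 0. Ifnar2 turned to -0.15 when scaled by total counts. Ifngr1, the ligand-binding chain of the IFN-γ receptor, had 16513 counts in the control library and 29172 in the DSS library, which is 231 and 534 CPM after scaling. This gave a log2 ratio of 1.21 (interval 1.18 to 1.24), or 0.95 when scaled by total counts. Ifngr2, the signaling chain of the same receptor, had 8714 and 8987 counts and a log2 ratio of 0.43 (interval 0.39 to 0.48). The 2 chains of this receptor thus differed, with Ifngr1 higher by 0.78 on the log2 scale (interval 0.73 to 0.83), a difference in which the scaling cancels.

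Ifnlr1, the chain particular to the type III interferon receptor, had 1133 control counts and 2103 DSS counts, with a log2 ratio of 1.28 (interval 1.18 to 1.39), the highest of the receptors. Its partner Il10rb, which also serves the IL-10 family and is not a member, was close to it at 1.12. Ifnar1, a chain of the type I receptor, had 3364 and 4458 counts and a log2 ratio of 0.79 (interval 0.73 to 0.86). Ifnar2, the other chain, had 774 and 636 counts, and its log2 ratio of 0.11 had an interval from -0.05 to 0.26. The ratio of Ifnlr1 exceeded that of Ifnar1 by 0.49 (interval 0.36 to 0.61) and that of Ifnar2 by 1.18 (interval 0.99 to 1.36). Ifnar2, Il10rb, Ifnar1 and Ifngr2 lie side by side on chromosome 16 in that order, so these neighbors did not share a single ratio.

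Levels can be set against each other between genes only per length, for which the scaled CPM was divided by the length of the longest annotated transcript in kb. Which transcript was expressed was not examined, so close ranks depend on this length. On this scale Ifngr1 was the most abundant receptor chain in both libraries, at 109 CPM per kb in control mIOs and 253 after DSS. Ifngr2 followed at 32.8 and 44.3, and then Ifnar1 at 12.0 and 20.9. Ifnlr1 stood at 3.79 and 9.20 CPM per kb, and Ifnar2 at 3.55 and 3.82. The order of the 5 chains was therefore the same in the 2 libraries, while Ifnlr1 and Ifnar2, nearly level in the control, lay apart in the DSS library.

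**Figure D2:**
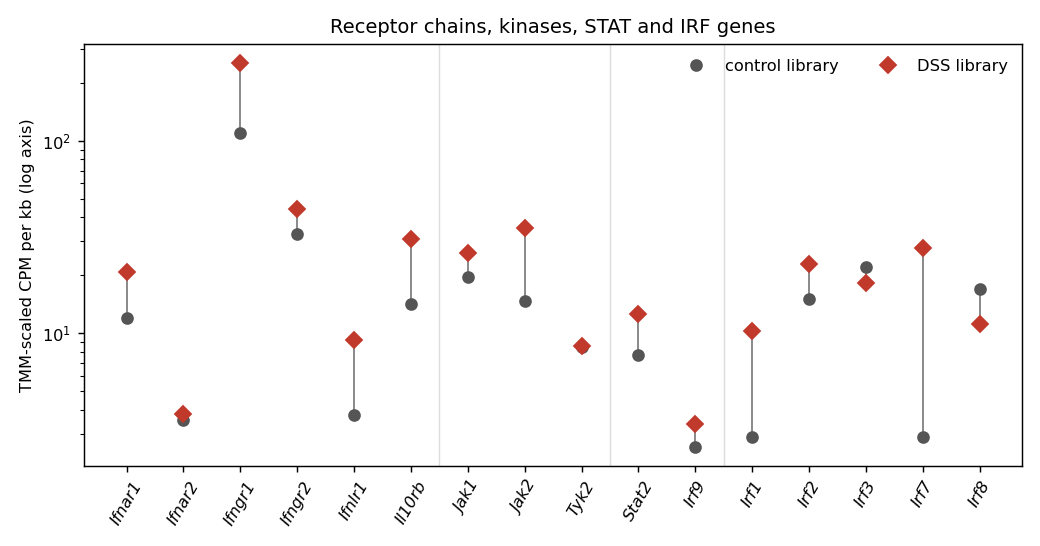
TMM-scaled CPM per kb of transcript (log axis) of the receptor chains, Janus kinases, STAT and IRF genes in the control library (circles) and the DSS library (diamonds), 1 library each. The widest gap is that of Irf7, from 2.92 to 27.6 CPM per kb, and the DSS values of Irf3 and Irf8 lie below their control values (with total counts also those of Ifnar2 and Tyk2).

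Of the interferon ligands, 12 of 13 listed genes had no row in the table, including Ifnb1, Ifng, Ifnl2 and Ifnl3. The remaining one, Ifnz, had 2 and 3 counts. Since every row of the table has at least 1 count in both libraries, a ligand expressed in one of them alone would not appear, and the levels of these ligands were not analysed here. Among the kinases, Jak2, which serves the IFN-γ receptor, had a log2 ratio of 1.26, Jak1 one of 0.41 and Tyk2, a kinase of the type I and type III receptors, one of 0.02 (interval -0.06 to 0.09).

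Of the 7 transcription factors, 2 were at 1 or more, where 19.3% of all genes were, and 5 stayed within 1 of 0. Irf7, the interferon-induced factor that amplifies type I interferon transcription, had 676 counts in the control library and 4897 in the DSS library, or 9.45 and 89.6 CPM. Its log2 ratio of 3.25 (interval 3.13 to 3.36) was the highest of this class. Irf1, a factor induced by IFN-γ and other inflammatory signals, had 446 and 1200 counts and a log2 ratio of 1.82 (interval 1.66 to 1.98). No other member of the class was past the line of 1.

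Irf2, known as an antagonist of IRF1 at shared sites, had 4292 and 4992 counts and a log2 ratio of 0.61 (interval 0.55 to 0.67), which is 1.21 below Irf1 (interval of the difference 1.04 to 1.38). Irf3, the constitutive factor activated by phosphorylation downstream of the sensors, had 3229 and 2035 counts and a log2 ratio of -0.28 (interval -0.36 to -0.20). Irf8, better known from myeloid cells and B cells, had 4206 and 2115 counts and a log2 ratio of -0.60 (interval -0.68 to -0.53). Per kb of the longest annotated transcript, Irf7 went from 2.92 to 27.6 CPM. This took it from the bottom of the IRF genes, level with Irf1 and a little above Irf9, to the top. Irf2 was close to it in the DSS library, at 23.0 CPM per kb, and close ranks depend on the length used. In the control library the most abundant IRF gene was Irf3, at 22.2 CPM per kb.

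Stat2 and Irf9, of the ISGF3 complex, had ratios closer to 0 than these. Stat2 had 2444 and 3015 counts and a log2 ratio of 0.69 (interval 0.61 to 0.77), and Irf9 had 717 and 721 counts and a ratio of 0.40 (interval 0.25 to 0.55). Both genes are themselves interferon-inducible. Stat2 exceeded Irf9 by 0.29 (interval 0.12 to 0.47), and Irf7 exceeded Irf9 by 2.85 (interval 2.66 to 3.04).

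Of the 5 sensors, 4 had a row and all 4 ratios were above 0, with a median of 0.48. Of all 17235 genes that passed the minimum, 8272 were above 0. Dhx58 turned to -0.09 when scaled by total counts. Ddx58, which encodes the cytosolic RNA sensor RIG-I, had 973 and 1958 counts and a log2 ratio of 1.40 (interval 1.29 to 1.51). It was the only one of the class at 1 or more, where 19.3% of all genes were. Ifih1, which encodes the related sensor MDA5, had 1356 and 1481 counts and a ratio of 0.52 (interval 0.41 to 0.62). Dhx58, which encodes LGP2, a helicase of the same family that modulates both, had 444 and 380 counts and a ratio of 0.16 (interval -0.04 to 0.36). Ddx58 exceeded Ifih1 by 0.88 (interval 0.73 to 1.04) and Dhx58 by 1.23 (interval 1.0 to 1.46). The double-stranded RNA-dependent kinase gene Eif2ak2 (PKR) had 3208 and 3337 counts and a ratio of 0.45 (interval 0.38 to 0.52).

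Of the 8 listed genes of interferon induction with a row, which include further sensors, none was at 1 or more, where 19.3% of all genes were. The adaptor genes Mavs and Ticam1 were at 0.13 and 0.49, and the kinase genes Tbk1 and Ikbke at 0.51 and 0.66. Tlr3, an endosomal RNA receptor, was at 0.68. Cgas, the cytosolic DNA sensor, stood apart with 1039 control counts but 150 DSS counts, a log2 ratio of -2.40 (interval -2.66 to -2.16).

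The effectors held both the highest and the lowest ratios. Of 28 effector genes, 25 had a row and 24 passed the minimum, and these ran from -6.09 to 5.87 with a median of 0.80. At 1 or more were 10 of them, Oas2 among these, where 19.3% of all genes were, and 3 lay at -1 or below, where 20.2% of all genes were. Mx1 (NCBI gene 17857), a dynamin-like GTPase gene against influenza viruses, had 10 counts in the control library and 446 in the DSS library, or 0.140 and 8.16 CPM, and its log2 ratio was 5.87 (interval 4.98 to 6.94). Its neighbor Mx2 had 13 and 52 counts and a ratio of 2.39 (interval 1.49 to 3.39). The ratio of Mx1 was above that of Mx2 by 3.48 (interval 2.08 to 4.89). The table lists only non-coding RefSeq transcripts for both genes, which matches their annotation as transcribed pseudogenes in the reference mouse genome, so their counts do not stand for MX proteins.

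**Figure D3:**
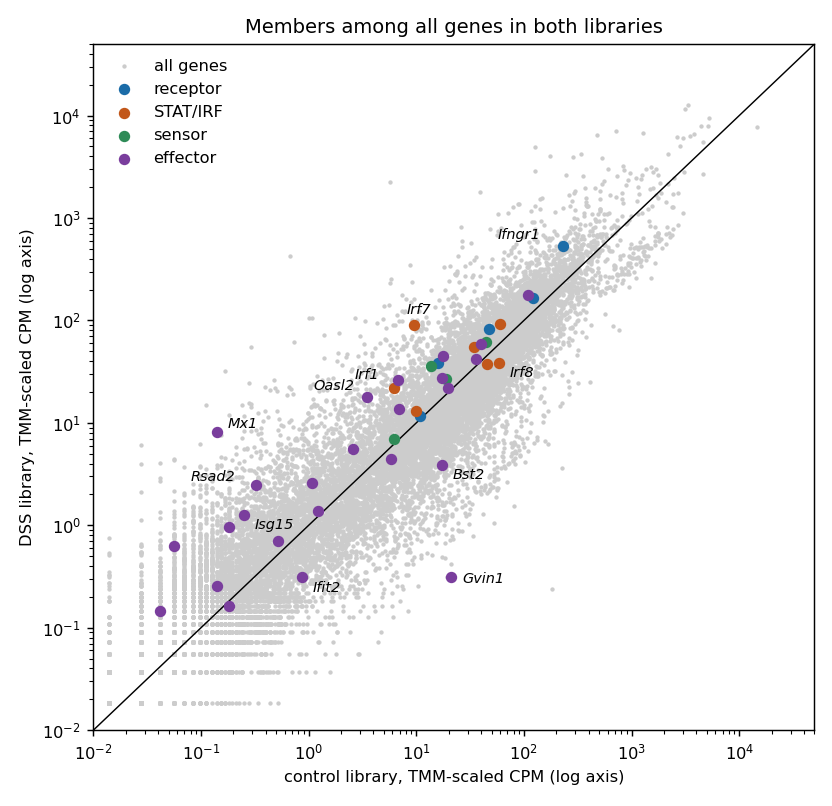
TMM-scaled CPM of each gene in the control library and in the DSS library (both log axes), with all listed genes in grey, members in color by class, and the line of equal values. Mx1 lies far above the line and Gvin1 and Bst2 far below it, and most members above 10 CPM lie close to or above it.

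Gvin1 (NCBI gene 74558), a very large interferon-inducible GTPase, went the other way, from 1516 counts in the control library to 17 in the DSS library, or 21.2 and 0.311 CPM. The log2 ratio was -6.09 (interval -6.87 to -5.41). Neighboring genes on chromosome 7, named here after their values were seen, were lower as well. Gm8989 had 3808 and 57 counts, Gm4070 had 1366 and 17, and Gm8995 had 129 and 3. Gm4070 shares the synonym VLIG-1 with Gvin1, and near-identical copies can share reads, so the separate values are uncertain. Summed over Gvin1 and these 3 genes, the counts were 6819 and 94, a log2 ratio of -5.79 (interval -6.10 to -5.50). Gbp7, a guanylate-binding GTPase, rested on 37 and 38 counts, and its ratio of 0.43 had an interval from -0.27 to 1.12.

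The antiviral proteins that act on RNA, nucleotides or membranes were divided as well. Oasl2, of the oligoadenylate synthetase family, had 250 and 982 counts and a log2 ratio of 2.36 (interval 2.16 to 2.57). Rsad2, which encodes viperin, had 23 and 135 counts and a ratio of 2.94 (interval 2.30 to 3.65). Oas2 had 4 control counts and 34 DSS counts and passed the minimum only through the DSS library, so its ratio of 3.48, with an interval from 1.99 to 5.43, had to be high. The relative Oasl1, which is not a member, had 1513 and 7543 counts and a ratio of 2.71 (interval 2.63 to 2.79).

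The Ifit genes, whose proteins bind foreign RNA, lie in 1 cluster on chromosome 19 and did not share a direction. Ifit1 had 184 and 304 counts and a log2 ratio of 1.11 (interval 0.84 to 1.38). Ifit3 had 76 and 141 counts and a ratio of 1.28 (interval 0.87 to 1.70), and with its close copy Ifit3b the sum was 140 and 230 counts and a ratio of 1.10. Ifit2 had 62 and 17 counts and a ratio of -1.48 (interval -2.35 to -0.69). It lay below Ifit1 by 2.59 (interval 1.74 to 3.50), and no scaling turned the sign of these 3 genes. The paralogs Ifit1bl1 and Ifit1bl2 were at 2.56 and 3.67. Ifit1bl2 had 370 and 3586 counts. Over these 6 Ifit genes the counts summed to 901 and 4792.

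Bst2 (NCBI gene 69550), which encodes tetherin, a protein that holds budding virus at the cell surface, had 1236 control counts and 213 DSS counts, or 17.3 and 3.90 CPM. Its log2 ratio was -2.15 (interval -2.36 to -1.94), and its promoter stretch printed above holds 2 overlapping ISRE cores. It was the lowest member after Gvin1. Bst2 and Irf8 are also markers of plasmacytoid dendritic cells, of which Tcf4 was at -0.52 and Siglech had no row, and the part of such cells in their values was not tested. Samhd1, which depletes nucleotides, had 2834 and 3183 counts and a ratio of 0.56, and Adar, which edits double-stranded RNA, had 2553 and 2272 counts and a ratio of 0.22 (-0.04 when scaled by total counts).

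Isg15, a ubiquitin-like modifier that is among the strongest interferon-induced transcripts in many cells, was scarce in both libraries, with 18 and 69 counts, or 0.252 and 1.26 CPM. Its log2 ratio was 2.33 (interval 1.56 to 3.16). Usp18, the protease that removes ISG15 and dampens type I signaling, had 10 and 14 counts, and the interval of its ratio of 0.87 ran from -0.40 to 2.21. The difference between the pair had an interval from -0.13 to 2.98 that included 0.

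Parp14 and Parp9, of the ADP-ribosyltransferase family, lie close to Dtx3l, the ubiquitin ligase partner of PARP9, on chromosome 16. Parp14 had 485 and 1420 counts and a log2 ratio of 1.94 (interval 1.79 to 2.09), Parp9 had 1238 and 1511 counts and a ratio of 0.68 (interval 0.57 to 0.79), and Dtx3l had 1418 and 1186 counts and a ratio of 0.13 (interval 0.02 to 0.24, and -0.13 when scaled by total counts). Dtx3l and Parp9 overlap at their starts on opposite strands and their products act as a pair, and Parp9 exceeded Dtx3l by 0.55 (interval 0.39 to 0.70). The libraries were stranded, but whether the counting used the strand is not given in the sources used here, so reads of the overlap may be shared. Trim25, the ubiquitin ligase that activates RIG-I, had 7740 and 9751 counts and a ratio of 0.72 (interval 0.68 to 0.76). Trim21, a cytosolic antibody receptor, had 416 and 241 counts and a ratio of -0.40 (interval -0.63 to -0.17).

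Of the remaining effectors, Ifi35 had 1279 and 2481 counts and a log2 ratio of 1.34 (interval 1.25 to 1.44). Ifi27, a small mitochondrial protein gene, had 490 and 740 counts and a ratio of 0.98, just short of the line. Xaf1, a promoter of apoptosis, had 87 and 76 counts and a ratio of 0.19 (interval -0.27 to 0.65, and -0.06 when scaled by total counts). The nuclear body genes Sp100 and Sp110 had no more than 13 counts in either library, and intervals of both ratios included 0. Their relative Sp140 had 94 and 14 counts, a ratio of -2.36, and close copies in this family can share reads.

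The highest ratios among the members came mostly from scarce transcripts. Of the 7 members at 2 or more, 5 (Mx1, Mx2, Oas2, Rsad2 and Isg15) had under 30 counts in the control library, and the exceptions were Irf7 and Oasl2. Over all genes that passed the minimum, 26.3% of those with under 30 control counts were at 2 or more, against 4.37% of those with 30 or more. Among the 33 members with at least 30 control counts, 10 were at 1 or more (30.3%), where 13.7% of all such genes were, and 2 were at 2 or more (6.06%).

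Further interferon-stimulated genes, 54 in all, ranged from -1.83 to 4.44. Of these, 40 had a row and all 40 passed the minimum. Among them 15 reached 1 (19.3% of all genes did), 7 of which reached 2 (7.87% of all genes), and 5 lay at -1 or below (20.2% of all genes), with a median of 0.73. The largest ratios among those with at least 50 counts in a library were Apol9a at 4.44, with 9 and 149 counts and so past the minimum only through the DSS library, Trim30d at 4.14, with 109 and 1469 counts, and Ifit1bl2 at 3.67. Plscr1, a membrane scramblase gene with 4849 and 12280 counts, was at 1.73. On the other side, Ifi44 had 23 and 5 counts, Cxcl10 had 25 and 7 and Nlrc5 had 14 and 3. These passed the minimum only through the control library, which favored low ratios. Oas1b and Parp11 were at -1.25 and -1.23. Some families are in both lists, and 14 of the 54 genes had no row, including Gbp4, Gbp5, Tgtp1 and Cxcl9. Among 7 feedback genes, Socs3 alone was past 1, at 1.07, where 19.3% of all genes were. Socs1 was at 0.89 and Ptpn6 at 0.79, while Ptpn2 and Pias1 were lower in the DSS library, at -0.73 and -0.17.

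**Figure D4:**
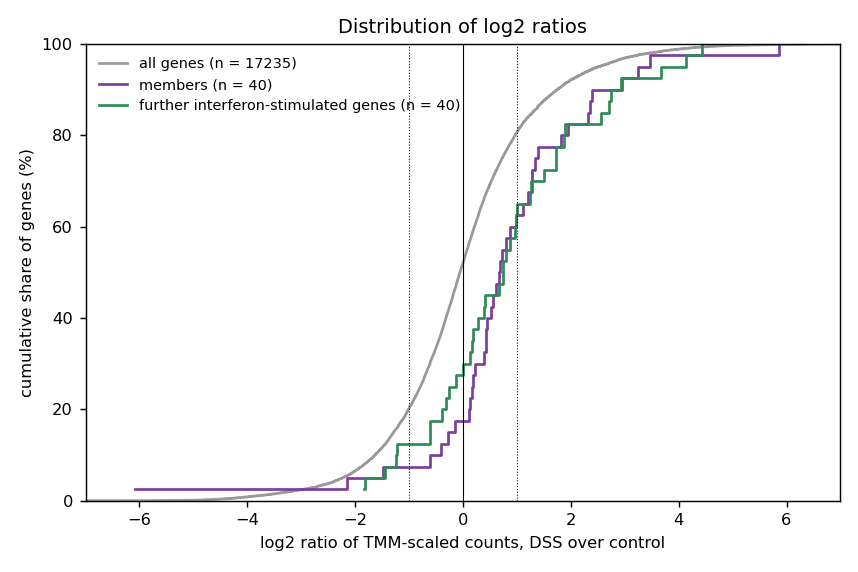
Cumulative share of genes (%) by log2 ratio of TMM-scaled counts, DSS over control, for all genes that passed the minimum, the members and the further interferon-stimulated genes. Both interferon curves lie to the right of all genes over most of the range, with medians of 0.68 and 0.73 against -0.06, and the left end of the members is Gvin1 alone at -6.09.

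Promoter windows were given for 34 of the 45 members, and 14 of these (41.2%) held the ISRE core, beside 3.99% of all 27025 genes with a window. The GAS core, searched as TTCNNNGAA, was in 12 of 34 members (35.3%) and in 9.55% of all genes. Among the 31 members with a window and a measured ratio, the 12 with the ISRE core had a median log2 ratio of 0.65, with 5 at 1 or more and 1 at -1 or less. The 19 without it had a median of 0.43, with 6 at 1 or more and 1 at -1 or less. As a background to both counts, 19.3% of the 17235 genes that passed the minimum reached 1, while 20.2% lay at -1 or below. These shares include genes without a window. For the GAS core, the 12 members with it had a median of 0.44 and the 19 without it 0.72. Over all measured genes with a window, the median was 0.02 for the 426 genes with the ISRE core and -0.04 for the others. Mx1, Mx2, Gvin1, Oas2 and Parp14 were among the members without a window, so the most extreme ratios do not enter these medians.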

How the data were processed

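mRNA-seq gave 1 library of control mIOs and 1 of DSS-treated mIOs. The authors deposited a table of raw counts by NCBI gene identifier, made from stranded poly(A) libraries. The submitters' notes name HISAT2 and StringTie. Their versions, the counting program and the genome build are not given in the sources used here. The files of the single samples, named as FPKM, hold the same counts for all 19294 genes. Every row has at least 1 count in both libraries, and the depth sets the counting intervals.

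Counts were scaled with TMM factors (1.09 control, 0.915 DSS) in edgeR 4.0.16 under R 4.3.3. Ratios of DSS over control are given with exact Clopper-Pearson 95% intervals, and differences between the ratios of 2 genes (21 pairs) with exact conditional intervals. Counts and medians over genes used genes that reached 10 counts in one library or both. The ratio computation was tested on simulated data. Members, classes, lists and the lines of 1 and 2 were chosen with earlier results of these data known, and the pairs and the cluster relatives of members after their values were seen. Named genes are the receptors, STAT and IRF genes, members with at least 50 counts in a library past 1 or -1, and up to 3 genes per further list with the largest ratios. The remaining members were also given with their values, and other genes were named after their values were seen. Transcript lengths came from GENCODE vM21 by symbol, and promoters from RefSeq (GRCm38.p6) by gene identifier. As alternatives, the scaling was changed to total counts, upper quartile factors or DESeq2 1.42.0 size factors, the control library was thinned to the DSS total, 2 prior counts were added, and the count minimum was dropped, raised to 50 or asked of both libraries. Python 3.11.15, numpy 2.4.6, scipy 1.17.1, pandas 2.3.3 and matplotlib 3.10.9 were used.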

Additional observations from a re-analysis of the deposited data

How the results depend on the processing

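No replicate could be left out and no paired analysis was possible because each condition is 1 library. Scaling by total counts lowered every ratio alike, and the median of all genes with it, by 0.26 on the log2 scale. The median was then 0.43 for all members, 0.54 for the receptors, 0.35 for the STAT and IRF genes and 0.22 for the sensors. With upper quartile factors the medians were 0.89 for the receptors, 0.70 for the STAT and IRF genes and 0.57 for the sensors. With total counts, 13 members were at 1 or more, as Ifngr1 (0.95) and Ifit1 (0.86) dropped below the line, beside 15.4% of all genes (26.2% at -1 or less). Of all genes beyond 1 or -1, the share on the higher side was 37.1% with total counts and 48.9% with TMM factors. Ifnar2, Dhx58, Adar, Dtx3l and Xaf1 then turned negative, and no member past 1 or -1 changed sign under any alternative. With upper quartile factors 16 members were at 1 or more, since Ifi27 reached 1.07, beside 21.2% of all genes (18.3% at -1 or less). With a line of 2 in place of 1, 7 members were above it, where 7.87% of all genes were. All other alternatives gave 14 to 16 members at 1 or more, and all gave 3 at -1 or less with the line of 1. In these other alternatives, 16.7% to 19.5% of all genes were at 1 or more and 18.9% to 20.4% at -1 or less. Depth limits the scarce members, and the intervals of Sp100, Sp110, Usp18, Gbp7, Xaf1, Dhx58 and Ifnar2 include 0.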
